A study of Mus musculus with 5 samples.

Results

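The genes described here are 9 genes of the Müller glia, Glul, Aqp4, Kcnj10, Vim, Apoe, Sox9, Clu, Car2 and Slc6a6, out of 33636 rows of the gene count table. They were chosen by symbol, each had 1 row, and all 9 passed the filter on low counts, which 17432 genes passed. Müller cells are the radial glia that span the retina. They clear glutamate and turn it into glutamine, take up potassium and pass it on with water towards the vitreous and the vessels, and buffer acid and osmolytes around the neurons. Their genes are often read as a sign of retinal stress, since injured retinas tend to change them.

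Retinal RNA came from wild-type male C57BL6/J mice at P42. The right eye had worn a diffuser goggle for 2 weeks (FDM, form-deprivation myopia), which blurs the image and drives the eye towards myopia, and the uncovered left eye of the same animals was the control. There were 2 FDM and 3 control libraries, each from the retina of 1 eye, and the labels list a refractive error at P42 of 0.976 and 0.2745 in the FDM eyes and of 2.4455, 3.1505 and 2.465 in the control eyes, without a unit. FDM 1 and Control 1 were eyes of one mouse and FDM 3 and Control 3 of another by the numbers in the count table. The sample labels number the second FDM library 2 rather than 3, and Control 2 has no partner under the numbering used here. A control eye shares its animal with a treated one, so an effect reaching both eyes could not be seen. Because the whole retina was sequenced, fewer Müller cells and less RNA per cell cannot be told apart.

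The libraries held 40599047 to 56534931 estimated counts. Levels are given as CPM, reads scaled to a common library size after TMM correction, and differences as log2 fold changes of FDM over control from edgeR's quasi-likelihood test. A call is an unadjusted p under 0.05, the threshold of the study. Adjusted p-values follow Benjamini and Hochberg and take in every gene that passed the filter. Libraries differed in the level of marker genes of neighbouring tissues, and the source of that RNA was not tested. The summed level of 10 genes of the retinal pigment epithelium (RPE) was 66.1 to 77.7 CPM in FDM eyes and 82.1, 276 and 267 CPM in the controls 1 to 3, and 6 of the 10 were called lower in FDM. The 9 lens genes summed to 1968 CPM in FDM 3 against 2.65 to 18.8 in the other libraries, and all 9 were called higher, a result that rested on FDM 3. Of 6 muscle genes, which reached 62.3 CPM in Control 3 against 9.29 to 10.7 elsewhere, 4 were tested and 0 called.

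None of the 9 Müller genes (0) was called different between FDM and control eyes, where 281 of all 17432 genes tested (1.61%) were, 0.453% higher and 1.16% lower in FDM. No gene of the table (0) had an adjusted p under 0.05 in this fit, against 3 with DESeq2. The log2 fold changes of the members ran from -0.25 for Apoe to 0.069 for Sox9, with 5 above and 4 below 0. Their median was 0.0081, beside -0.013 over all genes tested, and their median size regardless of sign was 0.026, beside 0.066 over all genes and 0.047 over those at 10 CPM or more. The summed level of the 9 genes was 5649.6 to 5699.7 CPM in FDM eyes and 5600.0 to 5882 CPM in control eyes, so the FDM libraries lay inside the range of the controls. Glul and Slc6a6, with means of 2473 and 1546 CPM, made up most of this sum, which says little about the less abundant members. As a share of all counts, the 9 genes took 0.565% to 0.587% of each library.

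**Figure D1:**
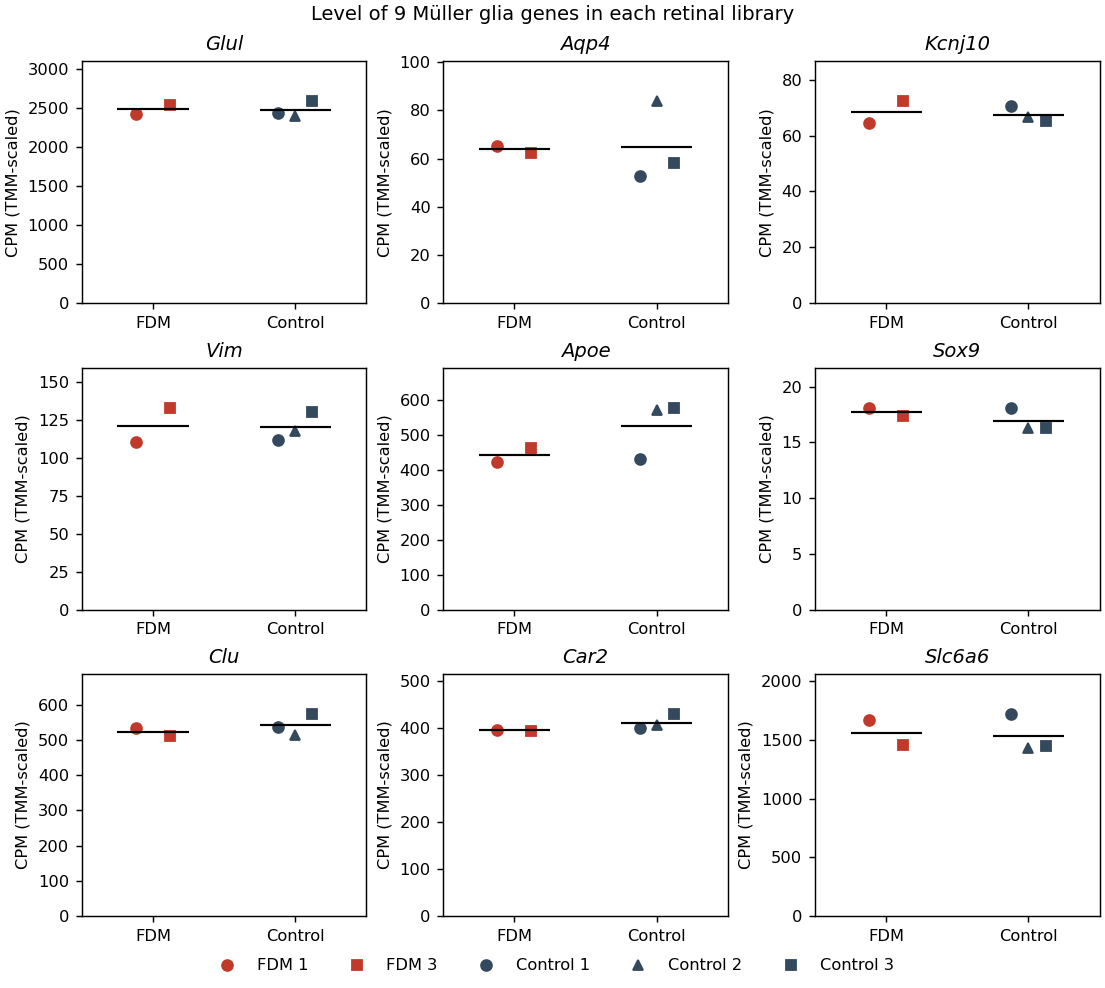
Level of each of the 9 Müller glia genes in CPM (vertical axes, starting at 0) in the 2 FDM and 3 control libraries; points are libraries, with circles, triangles and squares for mouse 1, 2 and 3, and the lines are group means. The groups overlap for every gene but Car2, where the FDM libraries lie at 395 and 396 CPM and the lowest control at 400 CPM, and Control 2 stands above the others for Aqp4.

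The labelled tissue was checked by its markers. The 12 genes of retinal neurons summed to 42796 to 55122 CPM in each library, and the Müller genes were well read. Rlbp1, which encodes the retinal binding protein CRALBP, had 381 to 422 CPM over the 5 libraries, and Slc1a3, the glial glutamate transporter GLAST, had 159 to 182 CPM. Both are named as Müller markers and were outside the rule for named genes. Per kilobase of exon, Glul was the most abundant member, with a mean of 744 CPM per kilobase over the 5 libraries. Apoe followed with 230.4, Slc6a6 with 183, Car2 with 167 and Clu with 155 CPM per kilobase. These 4 formed a chain in which the ranges of neighbours over the libraries overlapped, for example 197 to 269.9 for Apoe and 169 to 203 for Slc6a6. Vim stood at 25.4, Kcnj10 at 12.5 and Aqp4 at 10.3 CPM per kilobase, and the ranges of Kcnj10 and Aqp4 overlapped. The transcription factor Sox9 was lowest, at 4.17 CPM per kilobase. The lengths are those of all annotated exons of a gene, so a gene with long rare isoforms is understated.

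Upstream sequence is shown for the most abundant member, Glul, and for the member with the largest difference between groups, Apoe. RefSeq promoter windows on GRCm38.p6 were matched for 4 of the 9 genes, Glul, Kcnj10, Vim and Apoe. Each line gives the 250 bases before the annotated start, 5′ to 3′ on the strand of the gene, with capitals marking a CCAAT box, a GC box (read as GGGCGG) or a TATA box (read as TATAAA). The Glul window is chr1:153899679-153899928 on the plus strand, and the Apoe window, that of the most upstream of 3 RefSeq starts, is chr7:19699189-19699438 on the minus strand.
Glul: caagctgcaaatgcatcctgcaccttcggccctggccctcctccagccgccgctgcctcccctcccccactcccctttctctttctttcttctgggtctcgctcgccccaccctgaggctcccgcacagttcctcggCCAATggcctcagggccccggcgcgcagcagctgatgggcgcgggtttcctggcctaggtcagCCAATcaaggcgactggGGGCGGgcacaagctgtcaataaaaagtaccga
Apoe: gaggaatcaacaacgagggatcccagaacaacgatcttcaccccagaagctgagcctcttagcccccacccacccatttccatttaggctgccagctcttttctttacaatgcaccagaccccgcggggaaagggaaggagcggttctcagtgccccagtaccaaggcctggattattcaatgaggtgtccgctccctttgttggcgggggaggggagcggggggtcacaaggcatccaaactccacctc
The Glul window held 2 CCAAT boxes and 1 GC box, while the Apoe window held 0 of all these. Of the windows of the other Apoe starts, that at chr7:19698622-19698871 held 2 TATA matches. These overlap in 1 stretch, TTTATATAAA, and come from its opposite strands. The last window held 0 of the 3 motifs. On both strands, the CCAAT box was found in 33.8%, the GC box in 32.7% and the TATA box in 12.4% of 32851 such windows of mouse genes. The letters AACAAT, a core bound by Sox proteins, were in 9.42% of all windows and in neither of these. A match to such short letters is a description and not a binding site.

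Glul, on chromosome 1 of GRCm38 (153899944 to 153909723), encodes glutamine synthetase, which in the retina is made almost wholly by Müller cells. It had 2423 CPM in FDM 1 and 2540.5 in FDM 3, against 2431, 2391 and 2581 in Control 1, 2 and 3. Both FDM levels lay within the range of the controls, and the highest library was 1.08-fold above the lowest. For Glul, edgeR gave a log2 fold change of 0.0081 ± 0.086 (SE), with an adjusted p of 1.0 (0.928 unadjusted) and a 95% interval of -0.19 to 0.21. At 97073 counts or more per library the counting error was about 0.293%, and the spread between libraries was 3.34% of the mean. The other 10 genes of glutamate and glutamine handling, all tested, gave 0 calls. Slc38a3, a glutamine exporter and the most abundant of these, had 816 and 735 CPM in FDM eyes and 900, 731 and 746 in control eyes.

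Kcnj10 (chromosome 1, 172341210 to 172374085) encodes Kir4.1, the main potassium channel of Müller endfeet. Its level was 64.5 and 72.2 CPM in the FDM eyes and 70.6, 66.6 and 65.2 CPM in the controls. FDM 1 was the lowest library and FDM 3 the highest, so the controls lay between them. For Kcnj10, edgeR gave a log2 fold change of 0.019 ± 0.090 (SE), with an adjusted p of 1.0 (0.835 unadjusted) and a 95% interval of -0.19 to 0.23. Within the mice the direction differed, at -0.13 in mouse 1 and 0.15 in mouse 3, where the standard error from counting alone was 0.039 and 0.036.

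Aqp4 (chromosome 18, 15389496 to 15410982) encodes the water channel that shares the Müller endfoot with Kir4.1. It had 65.3 and 62.4 CPM in FDM 1 and FDM 3, against 52.9, 83.7 and 58.0 CPM in the controls 1 to 3. The FDM eyes stood above Control 1 and Control 3 and below Control 2, and the highest control was 1.58-fold above the lowest, the widest spread of any member. For Aqp4, edgeR gave a log2 fold change of -0.023 ± 0.19 (SE), with an adjusted p of 1.0 (0.906 unadjusted) and a 95% interval of -0.46 to 0.42. In both mice with 2 libraries the FDM eye had the higher level, by 0.30 in mouse 1 and 0.11 in mouse 3 on the log2 scale. With the mouse as a block the log2 fold change became 0.20 ± 0.072 (SE), and edgeR gave an adjusted p of 0.619 (0.0196 unadjusted). In a fit without Control 2, which called 3.16% of all genes, it was 0.21, with an adjusted p of 0.998 (0.0267 unadjusted) in edgeR. The sign also turned without FDM 3, at 0.0094, with limma, at 0.040, and with the deposited normalization factors, at 0.011, so no direction was settled. Aqp4 reads per Kcnj10 read were 1.01 and 0.865 in FDM 1 and FDM 3, and 0.75, 1.26 and 0.889 in the controls 1 to 3. The ratio was thus also highest in Control 2, and higher in the FDM than in the control eye only in mouse 1.

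The proteins that anchor both channels at the endfoot and related channels were taken as a list of 8 genes, from which 0 were called. Dmd, whose short retinal product Dp71 belongs to the anchoring complex, had 89.9 and 90.8 CPM in FDM eyes and 84.5, 118 and 86.6 in controls, again with the highest level in Control 2. A peak in Control 2 was not particular to the endfoot genes. Slc4a7 had 199 CPM there against 119 to 137 elsewhere, and Cp 150.2 against 89.2 to 102. Dag1, of the endfoot list, was lowest there, at 68.4 CPM against 70.9 to 75.9. These 3 genes are named after their values were seen. Cpeb3, ENSMUSG00000043498 and Gm14322 were the genes whose centred log2 levels over the 5 libraries lay nearest to those of Aqp4, with root mean square differences of 0.0060, 0.0087 and 0.017. Cpeb3, which encodes an RNA-binding protein, had 44.0 and 41.9 CPM in FDM eyes and 35.8, 56.7 and 39.3 CPM in controls. This likeness over 5 libraries is a description only.

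**Figure D2:**
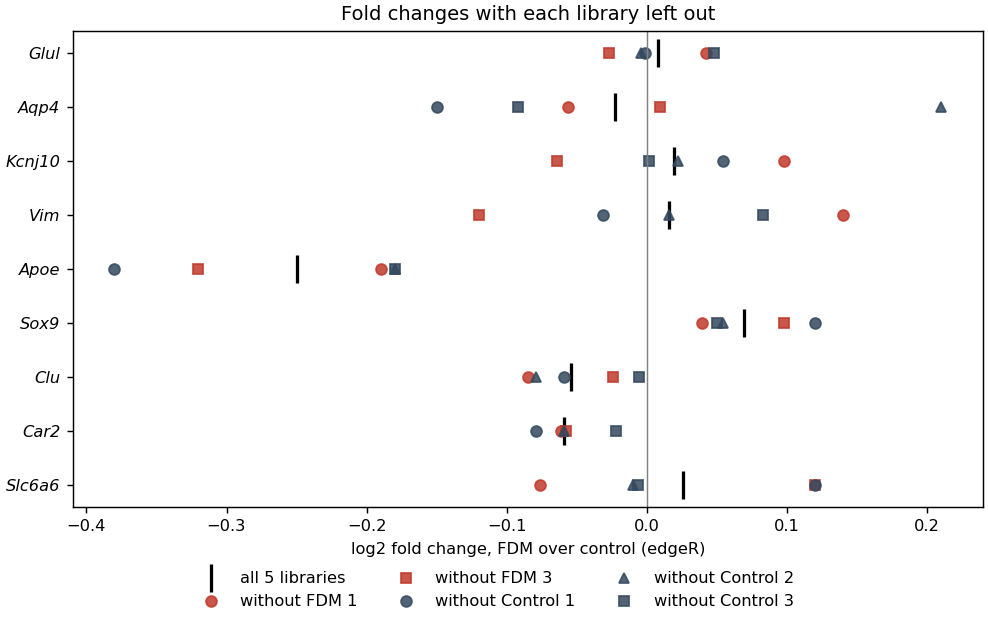
Log2 fold change of FDM over control for each Müller gene (horizontal axis) from edgeR with all 5 libraries (vertical bars) and with each library left out (points; red for an FDM and dark for a control library, circles, triangles and squares for mouse 1, 2 and 3). Aqp4 moves from -0.15 without Control 1 to 0.21 without Control 2, and Apoe stays below 0 throughout, from -0.38 to -0.18.

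Slc6a6 (chromosome 6, 91684053 to 91759066) encodes the taurine transporter, used by photoreceptors, Müller cells and the RPE to take up the most abundant free amino acid of the retina. It had 1669 and 1456 CPM in FDM 1 and FDM 3, against 1719.9, 1432 and 1452 CPM in the controls 1 to 3. Both eyes of mouse 1 were high and the other 3 libraries low. For Slc6a6, edgeR gave a log2 fold change of 0.026 ± 0.12 (SE), with an adjusted p of 1.0 (0.831 unadjusted) and a 95% interval of -0.25 to 0.30. Of 6 genes for taurine synthesis and other osmolytes, 0 were called. Nfat5, the transcription factor of the osmotic response, had 131 and 133 CPM in FDM eyes and 119, 165 and 127 in controls.

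Car2 (chromosome 3, 14886273 to 14900770) encodes a cytosolic carbonic anhydrase, which interconverts carbon dioxide and bicarbonate. Its level was 396 and 395 CPM in FDM eyes and 400, 407 and 429.6 CPM in controls. This was the only member, 1 of 9, whose groups did not overlap, with FDM lower. Over all genes tested, the groups did not overlap for 10.6%, with FDM lower for 6.67% and higher for 3.97%. The gap between FDM 1 and Control 1 was 1.01% of the level of Control 1, and it closed with library totals, with DESeq2 size factors and in the deposited normalized counts, where the groups overlapped for all members (0 of 9 apart). For Car2, edgeR gave a log2 fold change of -0.059 ± 0.080 (SE), with an adjusted p of 1.0 (0.481 unadjusted) and a 95% interval of -0.25 to 0.13.

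Car14, a membrane-bound carbonic anhydrase of Müller cells and RPE, was the only one of 8 genes for bicarbonate and acid transport that was called, with FDM lower. It had 76.9 and 72.8 CPM in FDM eyes and 83.4, 96.0 and 91.5 CPM in controls, so the groups did not overlap. For Car14, edgeR gave a log2 fold change of -0.27 ± 0.093 (SE), with an adjusted p of 1.0 (0.0219 unadjusted). With Control 3 left out the unadjusted p was 0.0678, with FDM 1 left out 0.0763 and with FDM 3 left out 0.167, all from edgeR. Pairing by the label numbers gave an unadjusted p of 0.0901 in edgeR, and limma gave 0.0512 and 0.051 with its 2 pseudocounts, so these settings also ended the call. Control 2 and Control 3, the libraries highest for Car14, were also those with the high RPE sums of 276 and 267 CPM, whose part in the Car14 difference was not tested.

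Vim (chromosome 2, 13573927 to 13582826) encodes vimentin, the intermediate filament of resting Müller cells. It had 110.2 and 133 CPM in FDM 1 and FDM 3, against 112, 118 and 130 CPM in the controls 1 to 3. The libraries of mouse 3 were the highest and those of mouse 1 the lowest, whichever eye was taken. For Vim, edgeR gave a log2 fold change of 0.016 ± 0.11 (SE), with an adjusted p of 1.0 (0.891 unadjusted) and a 95% interval of -0.25 to 0.28. Lens fibres also express vimentin. FDM 3, with a lens sum of 1968 CPM, had 133 CPM of Vim, while Control 3, with a lens sum of 10.6 CPM, had 130. The part of lens RNA in the Vim level was not tested. Among the other filament genes Gfap, Nes, Synm and Plec, 0 of 4 were called. Plec, which encodes the filament linker plectin, had 94.9 and 94.4 CPM in FDM eyes and 104, 85.8 and 87.7 in controls. Gfap, the filament that Müller cells add when they react to injury, had 27.0 and 26.9 CPM in FDM eyes and 32.6, 21.9 and 22.1 CPM in controls (log2 fold change 0.081, standard error 0.18). Gfap is named for its role and was outside the rule for named genes. Of 11 gliosis genes 10 were tested and 0 called, and their sum was 259 to 269 CPM in FDM and 253 to 312 in control eyes. Cp and Stat3, with means of 107 and 81.5 CPM, dominated this sum. Under the mouse block, which called 7.23% of all genes, 2 of the 10 had an unadjusted p under 0.05 in edgeR. These were Serpina3n, at -0.78, and Fgf2, at 0.23. Serpina3n had 5.01 and 8.21 CPM in FDM eyes and 6.49, 7.03 and 17.5 CPM in controls. All 4 are named after their values were seen.

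Sox9 (chromosome 11, 112782224 to 112787760) encodes a transcription factor needed to keep Müller cell identity. Its level was 18.1 and 17.4 CPM in FDM eyes and 18.1, 16.3 and 16.3 CPM in controls. The eyes of mouse 1 were level, and in mouse 3 the FDM eye was higher by 0.089 on the log2 scale, with a standard error from counting alone of 0.072. For Sox9, edgeR gave a log2 fold change of 0.069 ± 0.094 (SE), with an adjusted p of 1.0 (0.490 unadjusted) and a 95% interval of -0.15 to 0.29. With a mean of 17.3 CPM it was the least read member, and its counting error of 3.51% came nearest to its spread between libraries, 5.15%.

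Of the 20 other Müller genes, taken as a list, all were tested and 1, Car14, was called. Their summed level was 3035 to 3109 CPM in FDM and 3116 to 3221 CPM in control eyes. The groups thus did not overlap in this sum, with FDM lower, an arrangement that 6.67% of single genes tested had. The gap was narrow, from 3109 CPM in FDM 1 to 3116 CPM in Control 2. It was not tried under other scalings, and no such share was computed for sums of genes. The median log2 fold change of the 20 genes was -0.037, beside -0.013 over all genes. Under the mouse block, 4 of those 20 had an unadjusted p under 0.05 in edgeR, in a fit that called 7.23% of all genes. These were Car14, Sox2, Sox8 and Hes5, the last 3 named after their values were seen. Sox2 and Sox8 are relatives of Sox9, and Hes5 is a target of Notch signalling. Sox8 had 26.1 and 22.5 CPM in FDM eyes and 24.3, 17.8 and 18.9 CPM in controls, with a log2 fold change of 0.18 under the block and 0.26 without it. Hes5 had 11.2 and 8.28 CPM in FDM eyes and 9.17, 7.38 and 6.76 in controls, with 0.29 under the block and 0.33 without it. Sox2 had 26.8 and 26.1 CPM in FDM eyes and 29.6, 26.2 and 31.2 CPM in controls, with -0.20 under the block and -0.13 without it.

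Apoe (chromosome 7, 19696109 to 19699188) encodes apolipoprotein E, the lipid carrier that Müller cells secrete, which RPE and microglia also make. It had 421 and 463 CPM in FDM 1 and FDM 3, against 432, 570.2 and 577 CPM in the controls 1 to 3. Control 1 lay between the FDM libraries, and the other controls stood above all of them. For Apoe, edgeR gave a log2 fold change of -0.25 ± 0.14 (SE), with an adjusted p of 1.0 (0.113 unadjusted) and a 95% interval of -0.58 to 0.08. The FDM eye was lower in both mice, by 2.46% in mouse 1 and 19.8% in mouse 3. With the mouse as a block the log2 fold change was -0.18 ± 0.068 (SE), and edgeR gave an adjusted p of 0.654 (0.0291 unadjusted). In a fit without Control 1, which called 5.42% of all genes, it was -0.38, with an adjusted p of 0.551 (0.00489 unadjusted) in edgeR, and with any other library left out no call was made. Apoe thus passed the unadjusted threshold only in these 2 of the 16 alternatives, and after adjustment in none of them (0).

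Control 2 and Control 3, which had the most Apoe, also had the highest RPE and microglia sums. They held 276 and 267 CPM of the 10 RPE genes, against 66.1 to 82.1 in the other 3 libraries. The 7 microglia genes summed to 31.1 and 32.9 CPM in Control 2 and Control 3, and to 28.3, 25.5 and 29.3 in FDM 1, FDM 3 and Control 1, with 0 of 7 called. Csf1r, the most abundant, had 13.8 and 15.1 CPM in Control 2 and Control 3 against 10.5 to 11.9 elsewhere. C1qa shared this order, and the other microglia genes did not. Cx3cr1 was highest in Control 1, at 6.89 CPM, and Trem2 in FDM 1, at 1.87 CPM. These genes are named after their values were seen. None of the RPE or microglia genes (0) was without counts in any library. The part of these cells in the Apoe difference was not tested. Of 9 carriers, receptors and regulators of lipid transport 0 were called, and Vldlr, a receptor for apolipoprotein E and the most abundant of them, had 236 CPM in both FDM eyes and 221, 295 and 239 in controls.

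**Figure D3:**
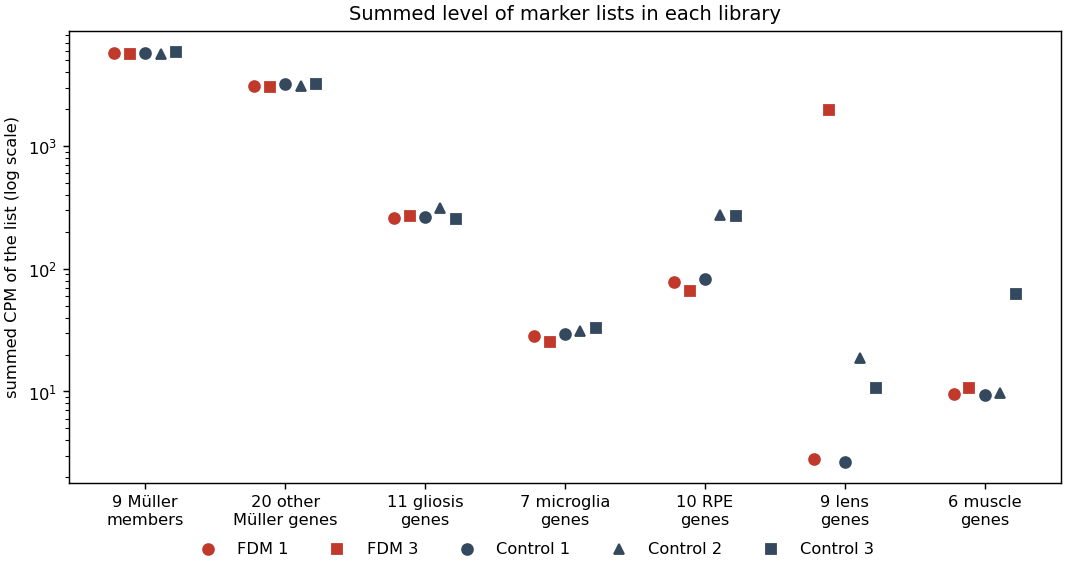
Summed CPM of 7 gene lists in each library (log axis); points are libraries, red for FDM and dark for control, with circles, triangles and squares for mouse 1, 2 and 3. The 2 Müller lists are level across libraries, the 10 RPE genes are high in Control 2 and Control 3 (276 and 267 CPM), the 9 lens genes in FDM 3 (1968 CPM) and the 6 muscle genes in Control 3 (62.3 CPM).

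Clu (chromosome 14, 65968483 to 65981547) encodes clusterin, a secreted chaperone that rises in many injured tissues. It had 533 and 511 CPM in FDM 1 and FDM 3, against 538, 515 and 573 CPM in the controls 1 to 3. FDM 3 was lowest and Control 3, its partner, highest, while the eyes of mouse 1 differed by -0.013 on the log2 scale. For Clu, edgeR gave a log2 fold change of -0.054 ± 0.086 (SE), with an adjusted p of 1.0 (0.549 unadjusted) and a 95% interval of -0.26 to 0.15. Apoe reads per Clu read were 0.79 and 0.906 in FDM 1 and FDM 3 and 0.803, 1.11 and 1.01 in the controls. The RNAs of these 2 secreted proteins thus did not keep a fixed ratio between libraries.

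The eye pairs were set beside the difference between the mice. In mouse 1 the median size of the log2 difference between the FDM and control eye was 0.022 over the 9 genes, beside 0.10 over all genes tested and 0.077 over those at 10 CPM or more. In mouse 3 it was 0.11, beside 0.097 and 0.070. Aqp4 was the only member, 1 of 9, higher in the FDM eye of both mice, an arrangement that 24.7% of all genes had. Lower in both were 4 members, Glul, Apoe, Clu and Car2, beside 30.4% of all genes, and the remaining 4, Kcnj10, Vim, Sox9 and Slc6a6, took opposite signs, beside 44.9%. Several of these signs rest on differences under 2% in mouse 1, and with library totals alone 2 members were higher and 1 lower in both mice.

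For Glul, Vim and Slc6a6, 3 of the 9 members, the libraries of mouse 3 differed from those of mouse 1 in the same direction and by more than either mouse's eyes differed from each other, beside 17.5% of all genes. Vim was higher in mouse 3 by 0.27 between the FDM eyes and by 0.22 between the control eyes, while the eyes of a mouse differed by -0.022 and 0.030. Slc6a6 was lower in mouse 3, by 0.20 and 0.24 in the same order, and its within-mouse differences were -0.044 and 0.0037. Control 2 was not used here. A difference between the animals and one between their dissections or libraries cannot be told apart.

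**Figure D4:**
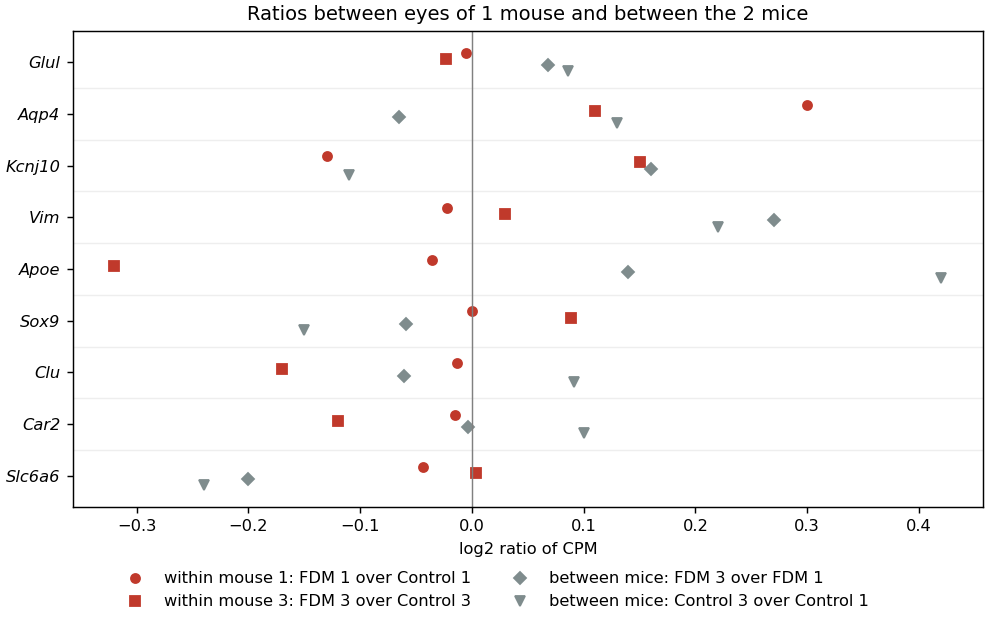
Log2 ratio of CPM for each Müller gene (horizontal axis) between the FDM and control eye of mouse 1 and mouse 3 (red) and between mouse 3 and mouse 1 for each kind of eye (grey). For Vim and Slc6a6 the red points lie within 0.044 of 0 and the grey points at 0.20 or beyond, while for Aqp4 both red points lie above 0, at 0.30 and 0.11.

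When the mouse entered as a block, 2 of 9 members, Aqp4 and Apoe, had an unadjusted p under 0.05 in edgeR, beside 7.23% of all genes, and 0 of 9 had an adjusted p under 0.05, beside 0.31%. The block fit kept Control 2 without a partner and had 1 residual degree of freedom per gene before edgeR's sharing of spread. When the eyes were paired by the numbers of the sample labels, 0 of 9 were called, with log2 fold changes of -0.061 for Aqp4 and -0.17 for Apoe.

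**Figure D5:**
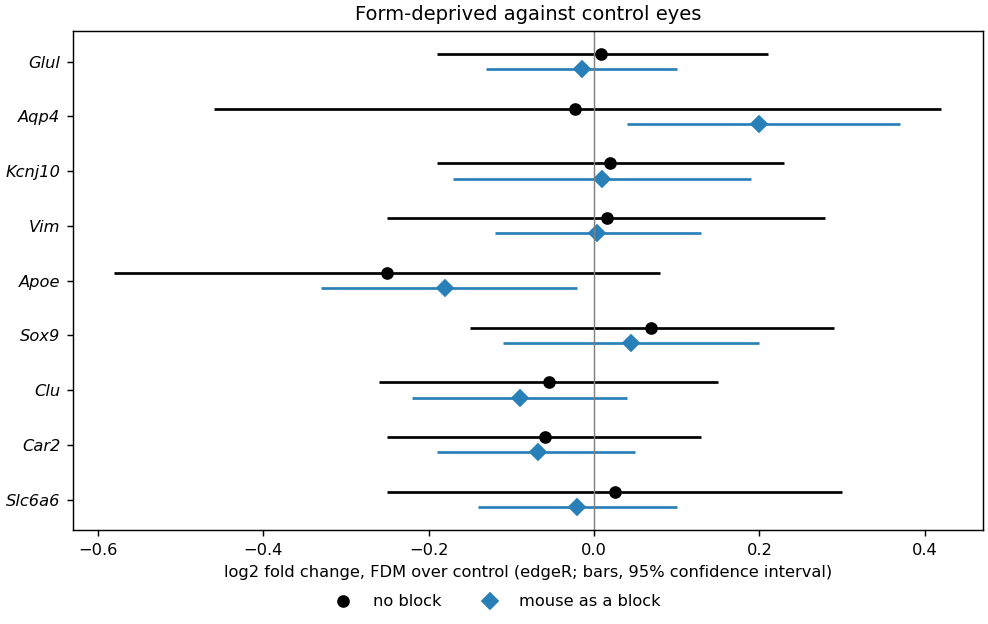
Log2 fold change of FDM over control with its 95% confidence interval for each Müller gene, from edgeR without a block (black) and with the mouse as a block (blue). All 9 black intervals include 0, and the blue intervals exclude it for Aqp4 (0.04 to 0.37) and Apoe (-0.33 to -0.02).

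The intervals bound what the fit of these libraries could have missed. Without the block, the 95% interval of the change ran from -12.6% to 15.7% for Glul, from -12.4% to 17.3% for Kcnj10 and from -15.7% to 9.3% for Car2. For Clu it was -16.3% to 10.8%, for Vim -15.7% to 21.3%, for Slc6a6 -15.7% to 23.0% and for Sox9 -10.1% to 22.3%. The widest were those of Aqp4, at -27.5% to 33.5%, and Apoe, at -33.1% to 5.41%. Larger changes than these lay outside the intervals, and in this fit smaller ones could not be told from the spread between libraries. The fit leaves out the pairing of eyes, so that spread takes in differences between mice. With the mouse as a block, the log2 interval of Glul narrowed from -0.19 to 0.21 to -0.13 to 0.10. Only those of Aqp4 and Apoe then excluded 0.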

How the data were processed

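Trimmomatic 0.39, Salmon 1.10.1 and R 4.3.1 are named in the submitters' processing notes, with GRCm38 as the build. Reads were trimmed by the authors and quantified per transcript. The deposited gene table holds estimated counts that are already whole. A second deposited table holds a signal, the counts after DESeq2 normalization by the authors, with factors that vary by gene and library. They left out 1 FDM library for its read duplication.

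The 17432 of 33636 genes that exceeded 10 counts in 2 or more libraries were fitted together in edgeR 4.0.16 (R 4.3.3), with TMM normalization, the quasi-likelihood test and no covariate, after tests on simulated data. Standard errors are the log2 fold change over the square root of F. The alternatives used DESeq2 1.42.0, limma 3.58.1, other scalings and filters, a mouse block and libraries left out. Replicates are eyes of different mice. Confidence intervals come from the edgeR fit and take in the spread between libraries. The standard errors said to come from counting alone leave that spread out.

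The text names the 9 members, every gene of the partner and marker lists with an unadjusted p under 0.05 or, in partner lists without one, the most abundant gene, and the 3 genes nearest to the member of widest range. Exceptions are marked. The called RPE and lens genes are given as counts and sums. Members and lists were chosen with earlier results of these data known. The astrocyte (5 genes), endothelium and pericyte (6), blood (3) and retinal neuron (12) lists had 0 calls.

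Eyes were paired by the numbers of the count table. Deviations from the group means correlated over genes at 0.229 for FDM 1 with Control 1 and 0.0884 for FDM 3 with Control 3. By the label numbers, FDM 3 with Control 2 gave 0.151. With 2 FDM libraries these deviations mirror each other. Coordinates and exon lengths are from GENCODE M21 on GRCm38.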

Additional observations from a re-analysis of the deposited data

How the results depend on the processing

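With the mouse as a block, pairing the eyes by the count table, 1261 genes passed the unadjusted threshold in place of 281, 54 after adjustment in place of 0, 32 list genes in place of 16 and 2 members in place of 0. Pairing by the label numbers gave 439 and 128 genes. DESeq2 gave 172 and 3 genes, and 2 after adjustment with the deposited normalization factors. Keeping genes with at least 1 count gave 498, more than 100 counts 133, and limma 500 and 493 genes with pseudocounts of 1 and 0.1, with 3 list genes each. With library totals or DESeq2 size factors, 2 members were higher and 1 lower in the FDM eye of both mice, and 0 were free of overlap, as with the deposited normalized counts. The cause was not tested.

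Leaving out 1 library gave 146 (without Control 3) to 944 genes (without Control 1), 0 to 16 after adjustment, 0 to 1 members and 6 to 31 list genes. The log2 fold change then ran from -0.027 to 0.048 for Glul, -0.15 to 0.21 for Aqp4, -0.064 to 0.098 for Kcnj10, -0.12 to 0.14 for Vim and -0.076 to 0.12 for Slc6a6. Signs also turned under the mouse block for Glul (-0.014), Aqp4 (0.20) and Slc6a6 (-0.020), under the label pairing for Kcnj10 (-0.0062) and Slc6a6 (-0.010), in limma for Aqp4 (0.040) and Vim (-0.061), and with the deposited factors, added after seeing the data, for Aqp4 (0.011) and Vim (-0.057). Without FDM 3, 8 of the 9 lens genes turned negative. Over the libraries left out, they ran from -1.47 to 7.73 (Cryba1), -4.90 to 8.09 (Cryaa), -0.020 to 5.48 (Mip), -0.83 to 4.59 (Bfsp1), -0.22 to 3.87 (Bfsp2), -3.65 to 8.17 (Crygs), -6.47 to 8.05 (Crybb2) and -3.12 to 6.52 (Lim2, listed as Gm52993).

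Over the 5 libraries depth was not the limit for 8 of the members, whose counting error was well below their spread. Between the eyes of 1 mouse it could be. In mouse 1 the log2 differences of Vim (-0.022), Clu (-0.013) and Car2 (-0.015) were smaller than their standard errors from counting alone. Those errors were 0.030, 0.014 and 0.016. Apoe in mouse 3 differed by -0.32, with such an error of 0.013.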
